A study of Homo sapiens with 24 samples.

Results

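The 10 receptor tyrosine kinase genes examined here were measured in T47D cells, an established line from a human luminal breast tumour that expresses the estrogen receptor. They are RET, ERBB2, ERBB3, ERBB4, EGFR, FGFR1, FGFR2, FGFR4, EPHA2 and DDR1. The members are the ATAC-seq peaks whose midpoint lies within 50 kb of the hg38 interval of 1 of these genes, 260 of the 189403 peaks in the table. No peak was shared by 2 of the genes. Of the 260 peaks, 131 lay inside a member gene and 200 had a member as their nearest coding gene. The rest lay nearer to another gene, so a peak is described by its position and not as a regulator of the gene it is listed under. A filter on low counts kept 228 of the 260 peaks (87.7%, against 82.8% of all peaks), and the 32 others had a mean of at most 0.898 CPM (read counts scaled to a common library total) and at most 18 counts in a library.

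The genes lie, in hg38, as follows. RET is at chr10:43077069-43130351 on the plus strand (19 peaks, 17 tested), ERBB2 at chr17:39688094-39728658 on the plus strand (25, all tested) and ERBB3 at chr12:56080108-56103505 (21, 19 tested). ERBB4 spans 1163.1 kb at chr2:211375717-212538802 on the minus strand (49, 40 tested), and EGFR 192.6 kb at chr7:55019017-55211628 on the plus strand (45, 34 tested). FGFR1 is at chr8:38411143-38468635 (24, 23 tested), FGFR2 at chr10:121478330-121598458 on the minus strand (27, 25 tested) and FGFR4 at chr5:177086915-177098144 on the plus strand (13, 12 tested). EPHA2 is at chr1:16124337-16156069 on the minus strand (22, 21 tested) and DDR1 at chr6:30880970-30900156 on the plus strand (15, 12 tested). No other coding gene lies within the windows of ERBB4, EGFR and FGFR2.

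Receptor tyrosine kinases are single-pass membrane proteins that dimerize when a ligand binds and phosphorylate each other on tyrosines, which then recruit adaptors that feed the RAS-MAPK and PI3K pathways. EGFR, ERBB2, ERBB3 and ERBB4 form the EGF receptor family, in which ERBB2 has no known ligand of its own and ERBB3 has little kinase activity. RET is the receptor of GDNF-family ligands and acts with GFRA co-receptors, FGFR1, FGFR2 and FGFR4 bind fibroblast growth factors, EPHA2 binds ephrin-A ligands on neighbouring cells, and DDR1 binds collagen. In luminal breast cells RET is known as an estrogen-induced gene, and ERBB2 and EGFR as genes that estrogen can repress.

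ATAC-seq reads chromatin accessibility from the sites where the Tn5 transposase can insert sequencing adapters. The 24 libraries fell into 6 groups of 4. In the complete-medium groups, 500000 T47D cells were kept for 1 day in growth medium with 10% serum. They then had 1 h of vehicle (0.1% DMSO) or of an antagonist (fulvestrant, raloxifene or tamoxifen) at 100 nM. In the starved groups, 330000 cells were kept for 3 days without phenol red in 10% charcoal-stripped serum, which is depleted of steroid hormones, and then had 1 h of vehicle or 1 nM estradiol. Medium, time in it and seeding density therefore differ together and cannot be told apart. Fulvestrant binds the estrogen receptor and leads to its loss, while raloxifene and tamoxifen are selective receptor modulators. The labels do not state separate cultures for the replicates, and the p-values then reflect only library-to-library spread, which may be technical. In bulk libraries, fewer cells with an open site and less opening per cell cannot be told apart. Complete-medium vehicle replicates 3 and 4 carry a treatment label that names fulvestrant, whereas their titles and descriptions name DMSO. Totals ran from 434598 counts in fulvestrant replicate 4 and 2422981 in starved vehicle replicate 3 to 12140005. The TMM scaling factor of fulvestrant replicate 4 was 1.49, against 0.960 to 1.05 in the others, and 36.1% of all peaks held no count in it. The 161 peaks in the 8 luminal marker genes summed to 635 to 1130 CPM. Of 4 basal and mesenchymal markers TP63 had 32 peaks (mean sum 110 CPM) and VIM 3 (22.5 CPM), while KRT5 and KRT14 had none. All 4 endothelial and fibroblast markers held peaks, 20 in all, which summed to 100 to 156 CPM. In 3 of 4 blood markers 18 peaks summed to 47.9 to 113 CPM. Sums grow with the number of peaks, so they do not identify the cells.

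The start sites of RET, EGFR, FGFR2 and EPHA2 lay within or beside a peak, and the 250 bases before each start are shown because the start-site values below come from them. The sequences are from RefSeq (GRCh38.p14), written 5′ to 3′ on the strand of the gene, and capitals mark the bases inside the ATAC peak.
RET chr10:43076819-43077068 (plus strand): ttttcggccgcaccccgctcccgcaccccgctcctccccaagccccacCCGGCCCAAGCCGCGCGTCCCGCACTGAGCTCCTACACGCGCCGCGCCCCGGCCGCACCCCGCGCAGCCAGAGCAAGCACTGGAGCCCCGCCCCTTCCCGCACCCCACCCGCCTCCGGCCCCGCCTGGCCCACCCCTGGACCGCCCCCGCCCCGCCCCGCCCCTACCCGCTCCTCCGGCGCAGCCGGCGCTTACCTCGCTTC
EGFR chr7:55018767-55019016 (plus strand): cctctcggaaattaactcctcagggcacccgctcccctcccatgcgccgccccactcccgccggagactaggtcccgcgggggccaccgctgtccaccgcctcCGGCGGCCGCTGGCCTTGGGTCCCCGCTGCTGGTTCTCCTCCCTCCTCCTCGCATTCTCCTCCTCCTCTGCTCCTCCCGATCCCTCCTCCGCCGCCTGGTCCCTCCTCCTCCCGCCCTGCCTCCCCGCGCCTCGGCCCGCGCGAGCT
FGFR2 chr10:121598445-121598694 (minus strand): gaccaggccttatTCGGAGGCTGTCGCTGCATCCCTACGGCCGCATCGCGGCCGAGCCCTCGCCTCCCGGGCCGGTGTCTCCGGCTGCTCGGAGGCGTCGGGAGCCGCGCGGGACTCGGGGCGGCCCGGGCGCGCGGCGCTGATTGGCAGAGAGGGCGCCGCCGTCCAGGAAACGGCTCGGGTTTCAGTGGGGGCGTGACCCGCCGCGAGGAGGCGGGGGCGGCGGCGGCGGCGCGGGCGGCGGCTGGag
EPHA2 chr1:16156070-16156319 (minus strand): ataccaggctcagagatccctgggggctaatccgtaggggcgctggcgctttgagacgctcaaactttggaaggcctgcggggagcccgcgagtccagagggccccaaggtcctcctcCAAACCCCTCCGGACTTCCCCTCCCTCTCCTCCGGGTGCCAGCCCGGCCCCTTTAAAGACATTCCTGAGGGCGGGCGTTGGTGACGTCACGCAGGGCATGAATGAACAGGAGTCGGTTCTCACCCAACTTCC

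Of these 250 bases, 202 lay inside the peak at RET, 147 at EGFR, 235 at FGFR2 and 132 at EPHA2. The 4 windows were rich in G and C, at 79.6% (RET), 73.6% (EGFR), 78.4% (FGFR2) and 63.2% (EPHA2), where the median of 35116 windows of the same length was 58.0%. Searched on both strands, the full estrogen response element (GGTCA, 3 bases of any kind, TGACC) was in none of the 4 and in 0.0399% of all windows. Its core GGTCA, which the full element contains, had 1 match at FGFR2 and none at the other genes, against 32.6% of all windows. The GC box GGGCGG had 5 matches at RET, 2 at EGFR, 3 at FGFR2 and 1 at EPHA2 (42.6% of all windows have a match), and the AP-1 sequence TGANTCA had none (6.57%).

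At the start sites of ERBB2, EGFR, FGFR2, EPHA2 and ERBB4 no peak passed the test between the vehicle and estradiol groups, while those of RET and FGFR4 were each called in 1 comparison and are described with those genes. CPM is not divided by peak width, so values are compared within a peak. The peak chr17:39687848-39688087, 0.126 kb upstream of the ERBB2 start and inside the interval of PGAP3, measured 33.8 ± 3.64 CPM (SD, n = 4) in complete vehicle, 30.4 ± 3.97 in starved vehicle and 32.0 ± 2.39 with estradiol. The EGFR start peak chr7:55018870-55019120 measured 16.7 ± 0.726, 16.2 ± 3.92 and 13.99 ± 2.18 CPM in the same groups. The groups overlapped at both genes.

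The FGFR2 start peak chr10:121598447-121598681 measured 19.2 ± 3.11 CPM in complete vehicle, 19.5 ± 2.75 in starved vehicle and 21.1 ± 1.28 with estradiol. The EPHA2 start peak chr1:16155991-16156201 measured 8.44 ± 1.88, 9.36 ± 1.95 and 9.10 ± 2.70 CPM. At ERBB4, the peak 0.45 kb upstream of the start (chr2:212539152-212539352) measured 6.99 ± 0.516, 7.04 ± 1.08 and 6.30 ± 0.222 CPM. None of these peaks passed the test in the estradiol or the medium comparison. FGFR4 was the exception, since its start peak chr5:177086978-177087197 was called between media, as described with that gene. For DDR1 the nearest tested peak lay 1.925 kb downstream of the first start (chr6:30882755-30883035) at 2.51 ± 0.589 CPM in complete vehicle and 2.84 ± 1.02 in starved vehicle.

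**Figure D1:**
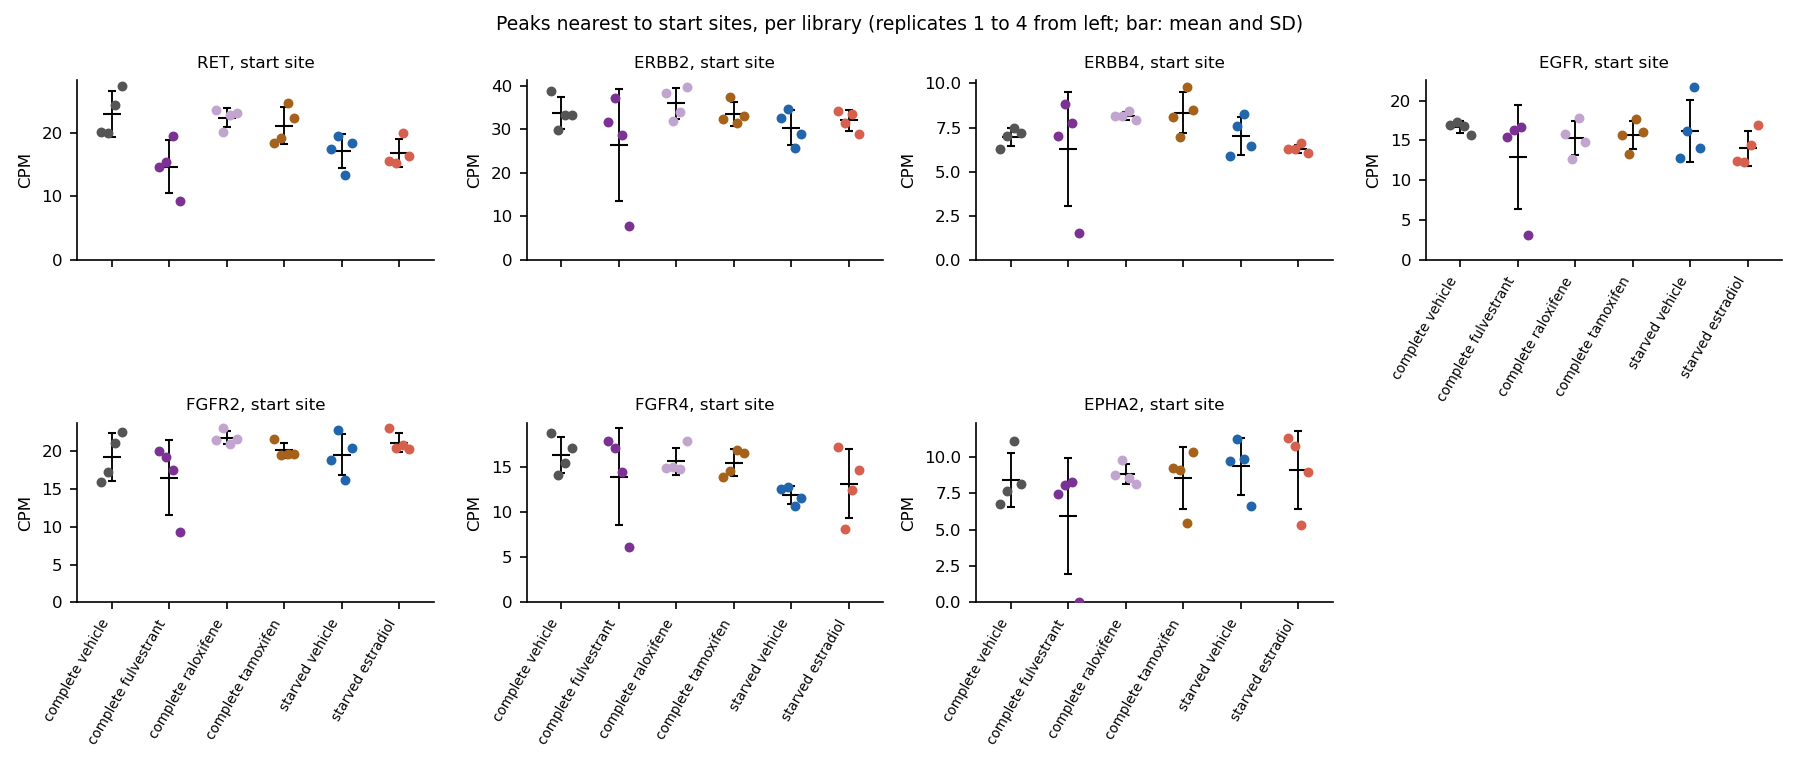
Accessibility in CPM (linear axes from 0) of the peak nearest to the start site of 7 genes in all 24 libraries, with replicates 1 to 4 from left in each group, horizontal bars for the mean and whiskers for the SD. Fulvestrant replicate 4, the shallowest library, is the lowest of its group in every panel. The RET peak is at 9.26 to 19.4 CPM with fulvestrant and 19.9 to 27.4 with complete-medium vehicle, a difference that was not called after adjustment.

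The strongest peak near 7 of the 10 genes had another gene as its nearest. At ERBB3 it was chr12:56104294-56104553 with a mean of 96.5 CPM over all libraries, 0.136 kb from PA2G4. At ERBB2 it was chr17:39730206-39730610 inside MIEN1 (57.4 CPM), and near FGFR1 it was chr8:38382364-38382609 inside LETM2 (49.9 CPM). Near RET it lay 0.015 kb from CSGALNACT2 (25.3 CPM), near FGFR4 inside NSD1 (18.5 CPM), near DDR1 0.105 kb from GTF2H4 (7.37 CPM), and near EPHA2 15.794 kb from ARHGEF19 (18.4 CPM). Between media the NSD1 peak was higher in complete vehicle (0.39, SE 0.137, adjusted p = 0.0341) and the ARHGEF19 peak lower (-0.35, SE 0.128, adjusted p = 0.0429), and both calls were lost without the conflicting libraries and in several other alternatives. The other 5 were not called, and estradiol changed none of the 7 by the test.

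Estradiol raised 5 of the 228 tested member peaks after 1 h (2.19%), 2 at ERBB4, 2 at EGFR and 1 at FGFR2, and lowered none. Over all 156745 tested peaks edgeR called 0.813% higher, 0.0223% lower and 0.835% in either direction. At an unadjusted p under 0.05 there were 20 member peaks (8.77%, against 5.99% of all tested peaks). The median log2 fold change was 0.00 over the members and -0.01 over all tested peaks. No peak near RET, ERBB2, ERBB3, FGFR1, FGFR4, EPHA2 or DDR1 was called. Within replicates 1 and 2 alone 3 member peaks were called higher (0.6% of all peaks called in either direction), and within replicates 3 and 4 alone 3 higher and 1 lower (0.47%). The plot of fold changes by gene shows them as the red points of its upper panel.

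**Figure D2:**
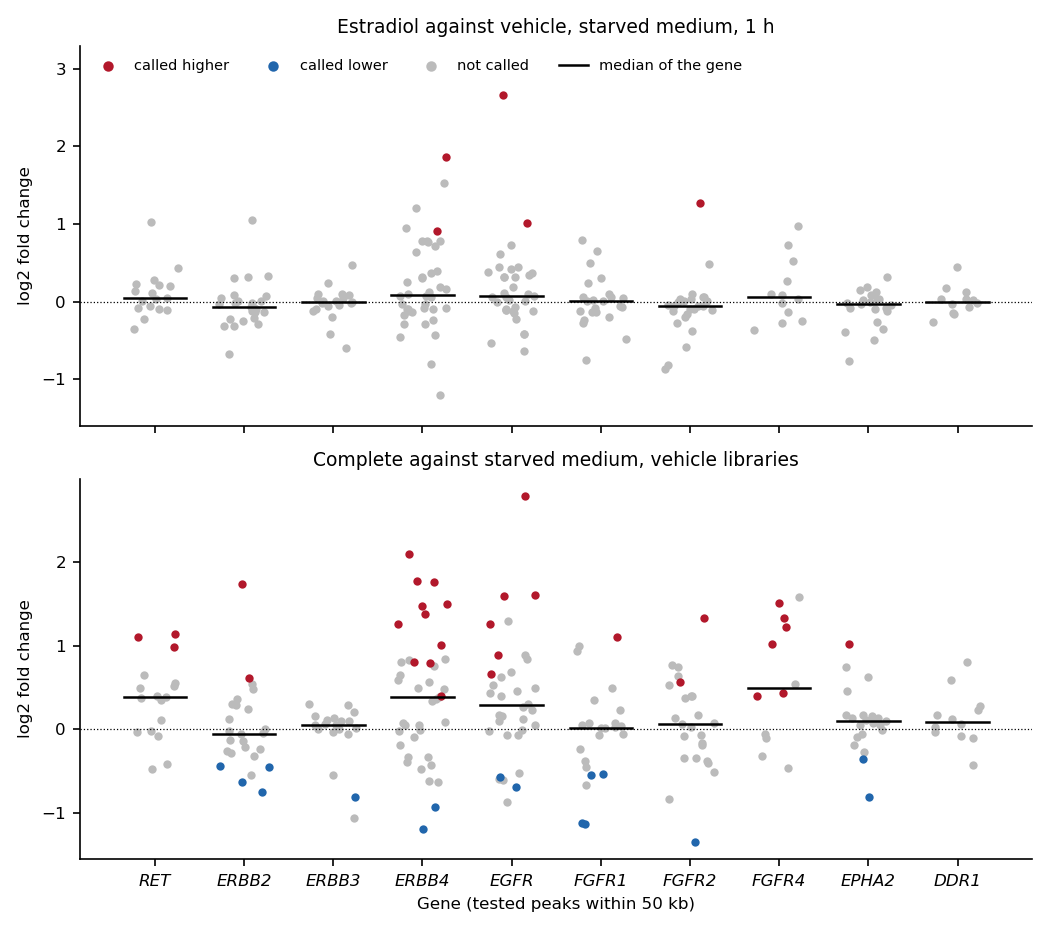
Log2 fold change (edgeR) of every tested peak near each of the 10 genes, for estradiol against vehicle in starved medium (top) and complete against starved medium in vehicle libraries (bottom), with a black line at the median of the gene. Red and blue mark peaks called higher and lower at an adjusted p under 0.05: 5 and 0 at the top, 32 and 16 at the bottom.

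ERBB4, a receptor of neuregulins, held the peak with the smallest p. In the peak chr2:211423117-211423390, inside the gene and 1115.548 kb downstream of its start, starved vehicle libraries measured 3.74, 3.42, 2.36 and 4.02 CPM. Estradiol libraries measured 11.1, 15.3, 11.4 and 15.7 CPM. Every estradiol library was thus above every vehicle library, and the log2 fold change was 1.86 (SE 0.202, adjusted p = 8.05e-11). Complete vehicle libraries measured 13.0, 12.4, 13.7 and 9.76 CPM, above all starved vehicle libraries and overlapping the estradiol ones. The difference between estradiol-treated starved and complete vehicle libraries was 0.10 on the log2 scale (SE 0.149, adjusted p = 0.712).

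The other ERBB4 peak raised by estradiol, chr2:211435238-211435609, was also the strongest near the gene. Starved vehicle libraries measured 6.23, 4.40, 4.73 and 6.88 CPM, and estradiol libraries 7.86, 11, 14.3 and 9.47. The groups did not overlap, with a log2 fold change of 0.91 (SE 0.193, adjusted p = 0.00217). The call was lost within either set of replicates, without starved vehicle replicate 2 and without estradiol replicate 3. Complete vehicle libraries, at 26.6, 23.4, 24.8 and 25.3 CPM, lay above all estradiol libraries, and estradiol-treated starved cells were lower than complete vehicle by a log2 fold change of -1.19 (SE 0.139, adjusted p = 2.74e-10).

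EGFR is the receptor of EGF and amphiregulin. Its peak chr7:55177698-55177962, inside the gene and 158.813 kb downstream of the start, measured 11.2, 9.16, 11.8 and 9.75 CPM in starved vehicle and 23.7, 20.8, 20.4 and 17.3 with estradiol. The lowest estradiol library was above the highest vehicle library, and the log2 fold change was 1.01 (SE 0.149, adjusted p = 1.16e-06). Complete vehicle libraries were higher still, at 33.0, 28.7, 31.4 and 30.3 CPM, and estradiol-treated libraries fell short of them by a log2 fold change of -0.59 (SE 0.117, adjusted p = 0.000106). The call held in every alternative run, as did that of the first ERBB4 peak.

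A weak EGFR peak 23.234 kb beyond the gene, chr7:55234734-55234989, was named after its values were seen, since it completes the 5. It held 2 to 3 counts in each starved vehicle library (9 in all) and 11 to 26 in each estradiol library (73 in all), or 0.388 ± 0.275 and 1.96 ± 0.833 CPM (SD, n = 4). The log2 fold change was 2.67 (SE 0.529, adjusted p = 0.000681), and it rests on 9 counts in the lower group. The call was lost within replicates 1 and 2. Complete vehicle measured 2.15 ± 0.905 CPM and did not differ by the test from estradiol-treated starved cells (log2 fold change -0.12, SE 0.319, adjusted p = 0.852).

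At FGFR2, the peak chr10:121589615-121589867 lay 8.703 kb downstream of the start, inside the gene. It measured 1.25, 1.83, 0 and 1.70 CPM in starved vehicle, where the 0 is the shallow replicate 3, and 3.07, 3.88, 4.09 and 2.91 with estradiol. The estradiol libraries were all above the vehicle libraries, with a log2 fold change of 1.28 (SE 0.319, adjusted p = 0.0202). This call was lost in 5 of 12 alternatives, among them DESeq2 and the fit without the 2 shallowest libraries, and when starved vehicle replicate 1, 3 or 4 or estradiol replicate 2 or 3 was left out. Unlike the other 4 peaks it was not higher in complete medium: complete vehicle measured 1.15 ± 0.333 CPM (SD, n = 4), and estradiol-treated starved cells were above it by a log2 fold change of 1.63 (SE 0.328, adjusted p = 0.000134).

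RET, the known estrogen-induced member, had no call. Its peak with the smallest p, chr10:43110783-43111048, lies 33.846 kb downstream of the start and measured 3.74, 1.22, 4.33 and 2.06 CPM in starved vehicle and 5.53, 7.23, 4.18 and 3.66 with estradiol. The groups overlapped, since vehicle replicate 3 exceeded 2 of the estradiol libraries. The log2 fold change of 1.03 (SE 0.29) missed the threshold with an adjusted p of 0.0769, and it passed within replicates 1 and 2 (1.35, SE 0.339, adjusted p = 0.0219) and without complete vehicle replicate 1, starved vehicle replicate 1 or 3, or estradiol replicate 4. It also passed with the replicate number as a block (1.00, SE 0.263, adjusted p = 0.0223) and with the replicate set as a term (1.07, SE 0.262, adjusted p = 0.00974). Within replicates 3 and 4 none of the 17 tested RET peaks reached an unadjusted p under 0.05. At ERBB2 the peak with the smallest p, chr17:39704847-39705071, differed by -0.31 (SE 0.113, adjusted p = 0.387), at 30.9 ± 3.56 CPM without and 24.4 ± 1.93 with estradiol.

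**Figure D3:**
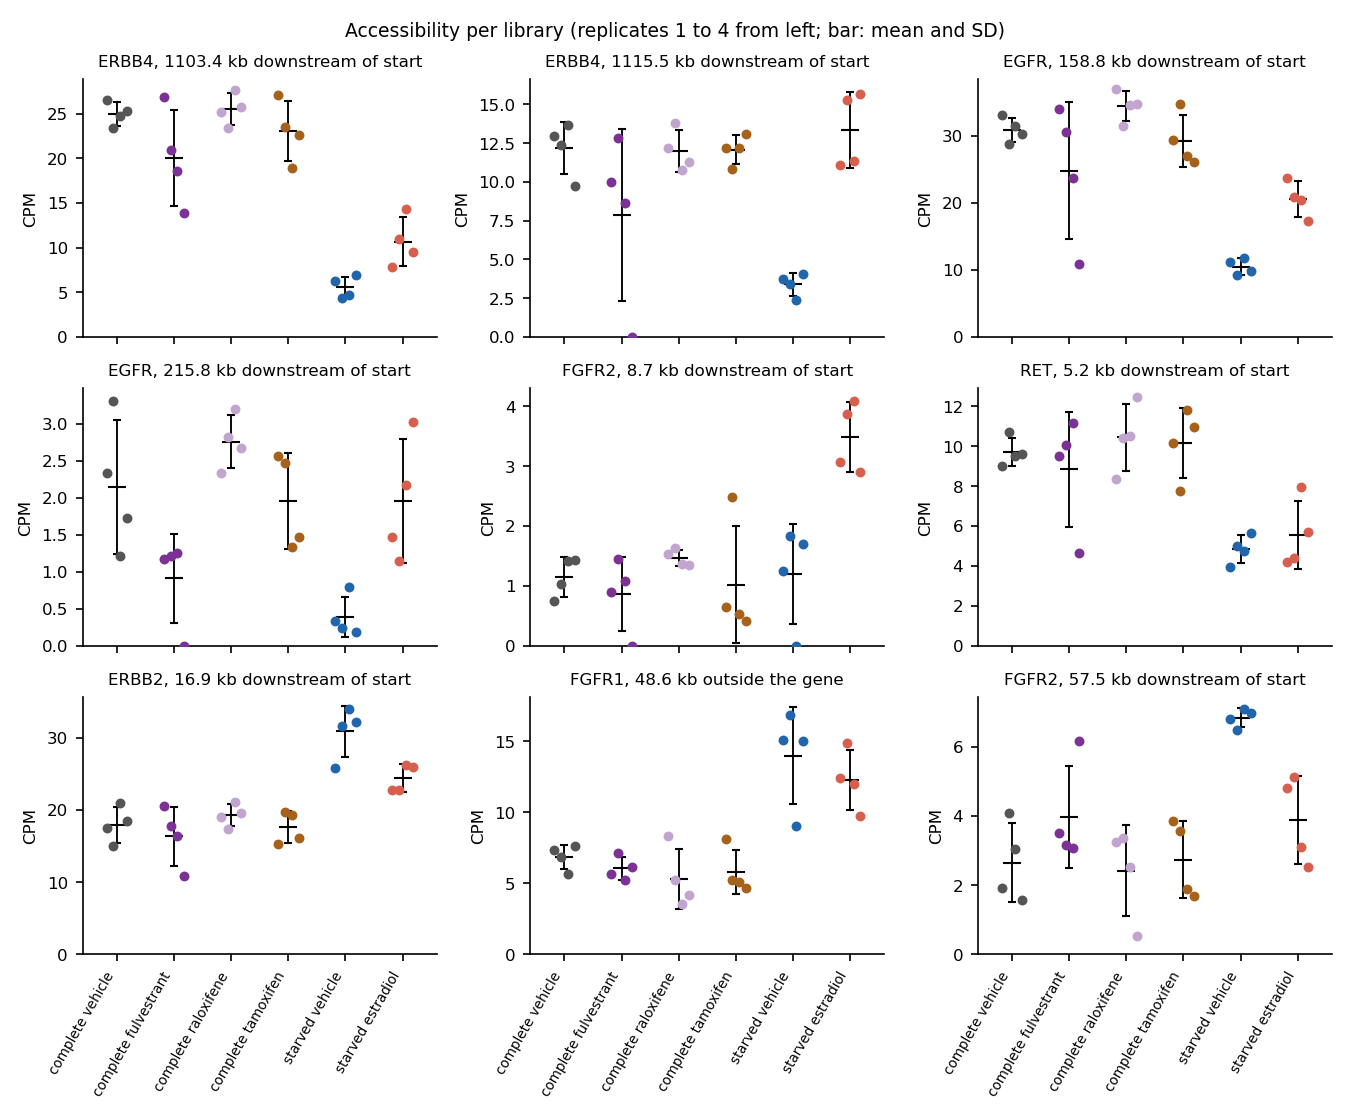
Accessibility in CPM (linear axes from 0) of 9 peaks in all 24 libraries, with replicates 1 to 4 from left in each group, horizontal bars for the mean and whiskers for the SD. The first 5 panels are the peaks raised by estradiol and the last 4 the peaks of RET, ERBB2, FGFR1 and FGFR2 with the smallest p between media, of which RET is higher and the other 3 are lower in the complete-medium vehicle libraries than in the starved ones.

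Between media, complete vehicle libraries were higher than starved vehicle libraries in 32 member peaks and lower in 16. The 48 calls are 21.1% of the 228 tested peaks, where edgeR called 17.8% of all tested peaks, 7.93% higher and 9.92% lower. At an unadjusted p under 0.05 there were 75 (32.9%, against 29.5% of all tested peaks). The median log2 fold change was 0.10 over the members and 0.02 over all tested peaks. ERBB4 had 11 higher and 2 lower, EGFR 6 and 2, FGFR4 6 and 0, RET 3 and 0, ERBB2 2 and 4, FGFR1 1 and 4, FGFR2 2 and 1, EPHA2 1 and 2, ERBB3 0 and 1, and DDR1 none. Inside a member gene 27.3% of 110 tested peaks were called, and outside 15.3% of 118. The 21 higher calls inside include the 11 at ERBB4. This split was not made over all tested peaks, so it is not read as a trait of the members.

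These counts depend on which libraries enter. Without the vehicle replicates 3 and 4 whose labels conflict, 19 peaks were higher and 13 lower, and 28 of the 48 calls were kept. Within replicates 1 and 2 there were 17 higher and 15 lower, where 12.8% of all peaks were called. Within replicates 3 and 4 there were 8 and 10, where 6.57% were. The share over all tested peaks was 17.8% with all libraries, so it fell within each set of replicates too. Without the 2 shallowest libraries there were 33 and 16. For the fits without the conflicting or the shallowest libraries the share over all peaks is not given here. Their counts are therefore not read as a trait of the members. Peaks in luminal marker genes moved with medium too, summing to 1050 to 1130 CPM in complete vehicle, 871 to 951 in starved vehicle and 939 to 1020 with estradiol, with all 8 genes holding peaks. Peaks in 3 of 4 blood markers summed to 78.2 to 87.2 CPM in complete vehicle and 77.2 to 113 in starved vehicle. Those in basal and mesenchymal markers summed to 117 to 133 and 128 to 162, and those in endothelial and fibroblast markers to 122 to 142 and 131 to 152. The part of these in the medium differences was not tested.

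At ERBB4 all 11 higher peaks lay inside the gene between 18.2 and 276.8 kb from its 3′ edge. Of the 19 tested peaks in the first 300 kb from that edge 11 were higher and none lower, with a median log2 fold change of 0.81, while in the rest of the gene none of 14 was called and the median was 0.02. The 300 kb boundary was set after the values were seen. Over all tested peaks 7.93% were called higher. Within replicates 1 and 2, 6 ERBB4 peaks were called higher and 1 lower, where 12.8% of all peaks were called. Within replicates 3 and 4 there were 5 and 1, where 6.57% were. Among the 11, the groups overlapped at chr2:211393835-211394068, chr2:211455303-211455511 and chr2:211652319-211652662. The largest change was in the peak chr2:211435238-211435609 given with estradiol, at 2.10 (SE 0.167, adjusted p = 3.34e-17). A neighbour named after its values were seen, chr2:211396896-211397122, measured 15.7 ± 1.22 CPM in complete and 8.65 ± 1.43 in starved vehicle (SD, n = 4), and its log2 fold change was 0.80 (SE 0.158, adjusted p = 8.48e-05).

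Beyond the 3′ edge of ERBB4 only 3 peaks were tested, of which 2 were lower and none higher. The peak chr2:211371836-211372147, 3.726 kb outside the gene and chosen after its values were seen, measured 8.13 ± 0.824 CPM in complete vehicle and 14.5 ± 4.06 in starved vehicle (SD, n = 4). Its log2 fold change was -0.93 (SE 0.164, adjusted p = 9.76e-06), and estradiol did not change it by the test (0.07, SE 0.141, adjusted p = 1). The other lower peak lay 20.998 kb outside the gene and was at -1.20 (SE 0.389, adjusted p = 0.0211), a call lost within either set of replicates, with DESeq2, without the conflicting libraries, and without complete vehicle replicate 4 or starved vehicle replicate 1 or 2.

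**Figure D4:**
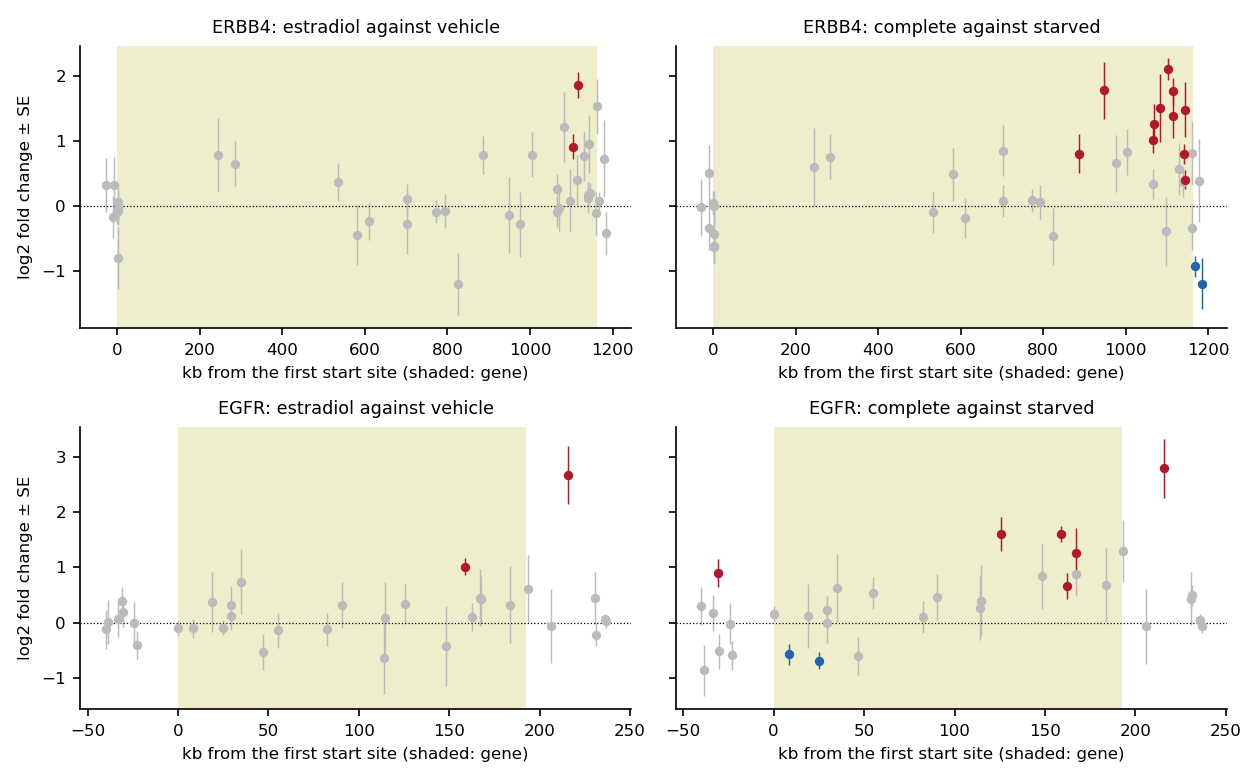
Log2 fold change with its SE (edgeR) of each tested peak near ERBB4 (top) and EGFR (bottom) against distance in kb from the first start site, for estradiol against vehicle (left) and complete against starved vehicle (right), with the gene shaded and peaks called higher in red and lower in blue. At ERBB4 the 11 peaks higher in complete medium sit in the last 300 kb of the gene, and at EGFR the called peaks within 50 kb downstream of the start are lower while those farther along are higher.

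EGFR showed both directions within the gene. The estradiol-raised peak chr7:55177698-55177962 was higher in complete medium by 1.60 (SE 0.141, adjusted p = 3.21e-15). A peak nearer to the start, chr7:55144376-55144651, was also higher by 1.60 (SE 0.308, adjusted p = 5.64e-05), at 5.39 ± 1.49 against 2.33 ± 1.67 CPM (SD, n = 4), although its libraries overlapped. Estradiol left that peak at 2.21 ± 0.917 CPM. Near the start, chr7:55043798-55044042 was lower in complete medium, at 10.9 ± 1.00 against 16.6 ± 3.60 CPM, by a log2 fold change of -0.69 (SE 0.154, adjusted p = 0.000488). Both of these further peaks were chosen after their values were seen.

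ERBB2, the kinase amplified in a subset of breast cancers, had 4 lower and 2 higher peaks. In the peak chr17:39704847-39705071, 16.865 kb downstream of the start and inside the gene, complete vehicle libraries measured 17.4, 14.9, 20.9 and 18.5 CPM. Starved vehicle libraries measured 25.7, 31.6, 33.9 and 32.2 CPM. The groups did not overlap, and the log2 fold change was -0.75 (SE 0.121, adjusted p = 1.52e-06). The neighbouring peaks 15.453 and 17.841 kb downstream, chosen after their values were seen, were lower by -0.44 (SE 0.101, adjusted p = 0.000678) and -0.45 (SE 0.102, adjusted p = 0.00059). Toward GRB7, which encodes an adaptor of ERBB2, chr17:39735941-39736191 moved the other way, at 12.7 ± 0.848 CPM in complete and 8.55 ± 1.09 in starved vehicle (0.62, SE 0.158, adjusted p = 0.00256). Within replicates 3 and 4 the calls of this peak and of the neighbour 15.453 kb downstream were lost.

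ERBB3, the dimerization partner of ERBB2, had 1 call. The peak chr12:56081970-56082176 inside the gene measured 8.499, 10.5, 9.81 and 9.62 CPM in complete vehicle and 12.2, 13.7, 15.4 and 23.4 in starved vehicle. The groups were separate, with a log2 fold change of -0.81 (SE 0.186, adjusted p = 0.00122), and the call was lost within replicates 1 and 2 and without starved vehicle replicate 4.

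All 3 called RET peaks were higher in complete medium. The peak chr10:43082207-43082432, 5.25 kb downstream of the start and inside the gene, measured 9.03, 10.7, 9.50 and 9.62 CPM in complete vehicle and 3.97, 5.01, 4.73 and 5.63 in starved vehicle. The groups did not overlap, and the log2 fold change was 0.98 (SE 0.199, adjusted p = 0.000131). A peak 1.402 kb upstream of the start, chr10:43075543-43075792, measured 7.20 ± 0.631 against 3.53 ± 0.634 CPM (1.11, SE 0.23, adjusted p = 0.000183) and was chosen after its values were seen. The peak 33.846 kb downstream was higher by 1.14 (SE 0.29, adjusted p = 0.00293), a call lost without complete vehicle replicate 1. Within replicates 3 and 4 none of the 3 was called. Estradiol raised none of the 3 by the test. At the start site itself the difference was 0.35 (SE 0.131, adjusted p = 0.0503), at 22.9 ± 3.63 against 17.2 ± 2.67 CPM.

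Among the fibroblast growth factor receptors, 6 of 12 tested peaks near FGFR4 were higher in complete medium and none lower, 1 of 23 near FGFR1 was higher and 4 lower, and 2 of 25 near FGFR2 were higher and 1 lower. Over all tested peaks 7.93% were called higher and 9.92% lower. The median log2 fold changes were 0.49 for FGFR4, 0.02 for FGFR1 and 0.07 for FGFR2, and a difference between the receptors was not tested. Near FGFR4, 2 peaks were called within replicates 1 and 2, and only 1 within replicates 3 and 4. Of its 6 higher peaks, chr5:177099461-177099679 had overlapping groups. The FGFR4 start peak chr5:177086978-177087197 measured 18.7, 14.04, 15.4 and 17.1 CPM in complete vehicle and 12.6, 12.7, 10.6 and 11.5 in starved vehicle. The groups did not overlap, and the log2 fold change of 0.44 (SE 0.154, adjusted p = 0.0366) was lost in 7 of 13 alternatives, among them either set of replicates, DESeq2 and the fit without the conflicting libraries. It was also lost without complete vehicle replicate 1 or 4 and without any 1 of the starved vehicle libraries. The peak with the smallest p in the FGFR4 window, chr5:177124515-177124724, is nearer to NSD1 and was higher by 1.23 (SE 0.285, adjusted p = 0.00087), at 4.93 ± 0.96 against 2.50 ± 1.21 CPM.

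The FGFR1 peak with the smallest p, chr8:38517109-38517393, lay 48.616 kb outside the gene. It measured 7.33, 6.89, 5.66 and 7.61 CPM in complete vehicle and 15.1, 16.9, 9.06 and 15.02 in starved vehicle, a log2 fold change of -1.13 (SE 0.177, adjusted p = 6.92e-07) with no overlap. Inside FGFR1, 1 peak was higher (1.099, SE 0.306, adjusted p = 0.00616, a call lost within replicates 3 and 4 and without starved vehicle replicate 2) and 2 were lower. The FGFR2 peak chr10:121540820-121541121, 57.474 kb downstream of the start and inside the gene, measured 1.91, 4.08, 3.03 and 1.58 CPM in complete vehicle and 6.80, 6.47, 7.09 and 6.97 in starved vehicle. The starved libraries were all above the complete ones, with a log2 fold change of -1.34 (SE 0.261, adjusted p = 6.31e-05). With estradiol it measured 4.79, 5.13, 3.09 and 2.53 CPM, below every starved vehicle library, yet the difference of -0.81 (SE 0.235) missed the threshold at an adjusted p of 0.0906.

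EPHA2 had 1 higher peak, nearest to FAM131C, and 2 lower ones nearest to ARHGEF19. The higher one, chr1:16091332-16091583, measured 4.36, 3.57, 4.45 and 4.74 CPM in complete and 1.93, 1.83, 1.97 and 2.50 in starved vehicle, with no overlap (1.01, SE 0.269, adjusted p = 0.0039). Its call was lost without the conflicting libraries (0.92) and within either set of replicates. DDR1 had no call. The DDR1 peak with the smallest p, chr6:30886115-30886348, differed by 0.81 (SE 0.436, adjusted p = 0.21) at 1.36 ± 0.319 against 0.924 ± 0.441 CPM.

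Estradiol-treated starved libraries were also set against complete vehicle, which asks how far 1 h of hormone brings starved chromatin to the complete-medium level. The 3 comparisons share libraries, so their values are given side by side and not as separate support. Estradiol-treated libraries were higher in 13 and lower in 23 of the 228 member peaks, 15.8%, where edgeR called 16.6% of all tested peaks, 9.39% higher and 7.25% lower. Estradiol raised 4 of the 32 peaks that stood higher in complete medium, 28 were not called with it, and 16 were called below complete vehicle after estradiol. Of the 16 peaks lower in complete medium, 12 were called above complete vehicle after estradiol. These joint counts were not made over all tested peaks, so they are not read as a trait of the members. Peaks picked by their complete vehicle values are also favoured for calls against those same libraries. Within replicates 1 and 2, 11 member peaks were higher and 16 lower, where 11% of all peaks were called. Within replicates 3 and 4 there were 5 and 8, where 6.62% were. Without the conflicting vehicle libraries there were 9 and 14, and 22 of the 36 calls were kept. The share over all peaks is not given here for that fit, so its counts are not read as a trait of the members.

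The members with most of these calls were ERBB4 (1 higher, 7 lower), ERBB2 (4 and 3) and FGFR1 (4 and 1). At RET, 3 peaks were lower, among them the start peak chr10:43076867-43077155, at 16.8 ± 2.23 CPM with estradiol and 22.9 ± 3.63 in complete vehicle (-0.43, SE 0.126, adjusted p = 0.0113), where the groups overlapped. Within replicates 3 and 4 all 3 RET calls were lost, and that of the start peak also within replicates 1 and 2, without the conflicting libraries, with the replicate set as a term, and without complete vehicle replicate 3 or 4 or estradiol replicate 1 or 2. The ERBB2 peak chr17:39704847-39705071 was above complete vehicle by 0.44 (SE 0.12, adjusted p = 0.00609), a call lost within replicates 3 and 4. The GRB7-side peak chr17:39735941-39736191 stood below complete vehicle by a log2 fold change of -0.93 (SE 0.157, adjusted p = 5.08e-06), at 6.71 ± 0.438 CPM with estradiol.

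The antagonists were compared with vehicle and with each other at 100 nM and 1 h in complete medium. None of the 228 member peaks was called in any of the 6 comparisons, in the fit of all libraries or in any alternative run, including replicates 3 and 4 alone, where fulvestrant against vehicle called 0.0547% of all peaks. Over all tested peaks edgeR called 0% with fulvestrant, 0.000638% (1 peak) with raloxifene, 0% with tamoxifen, 0.000638% between fulvestrant and raloxifene, 0% between fulvestrant and tamoxifen and 0% between raloxifene and tamoxifen. At an unadjusted p under 0.05 there were 11 member peaks with fulvestrant, 15 with raloxifene and 8 with tamoxifen, and 17, 16 and 7 between the pairs in the order given. These are 4.82%, 6.58%, 3.51%, 7.46%, 7.02% and 3.07% of the members, against 3.96%, 3.81%, 4.13%, 5.16%, 5.27% and 3.92% of all tested peaks. DESeq2 also called none, with 7, 8 and 4 at an unadjusted p under 0.05 against vehicle. A missed threshold does not show that the compounds act alike. The 95% interval lay within a 2-fold change in either direction for 157 peaks with fulvestrant, 169 with raloxifene and 163 with tamoxifen, and for 155, 157 and 167 between the pairs.

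The smallest p with fulvestrant was at the RET start site, the peak chr10:43076867-43077155 whose bases are in capitals in the RET sequence. Vehicle libraries measured 20.1, 19.9, 24.4 and 27.4 CPM, and fulvestrant libraries 14.6, 15.4, 19.4 and 9.26. All fulvestrant libraries lay below all vehicle libraries. The log2 fold change was -0.53 (SE 0.141, 95% interval -0.81 to -0.25), with an unadjusted p of 0.000351 and an adjusted p of 1. Raloxifene libraries measured 22.4 ± 1.56 CPM and tamoxifen libraries 21.2 ± 2.91 (SD, n = 4). Fulvestrant was below raloxifene by -0.50 (SE 0.141, interval -0.78 to -0.22, adjusted p = 0.965) and below tamoxifen by -0.42 (SE 0.144, interval -0.71 to -0.14, adjusted p = 0.934). The lowest fulvestrant library is the shallow replicate 4, and the highest vehicle libraries are the replicates 3 and 4 with conflicting labels.

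The next fulvestrant peaks by p were chr17:39676175-39676460 inside PGAP3 near ERBB2 (-0.52, SE 0.176) and the CSGALNACT2 peak near RET (-0.34, SE 0.129). With raloxifene they were chr2:211473594-211473795 inside ERBB4 (0.41, SE 0.155), chr17:39653909-39654169 inside STARD3 near ERBB2 (0.55, SE 0.217) and chr5:177099461-177099679 beside FGFR4 (-0.95, SE 0.4). With tamoxifen they were chr2:211424519-211424760 inside ERBB4 (-0.87, SE 0.307), chr1:16155052-16155284 inside EPHA2 (-0.57, SE 0.216) and chr2:211590234-211590519 inside ERBB4 (-0.93, SE 0.377). Each of these 8 had an adjusted p of 1 in edgeR.

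The first tamoxifen peak was also the member with the smallest p between raloxifene and tamoxifen. Tamoxifen libraries measured 1.80, 1.24, 1.61 and 1.88 CPM in chr2:211424519-211424760, raloxifene libraries 3.96, 3.37, 2.74 and 2.55, and vehicle libraries 2.87, 3.19, 2.63 and 3.73. All tamoxifen libraries were below all raloxifene and vehicle libraries, and raloxifene was above tamoxifen by 0.94 (SE 0.301, interval 0.34 to 1.54, adjusted p = 1). Between fulvestrant and tamoxifen the smallest p was at chr2:211440838-211441053 inside ERBB4 (-1.98, SE 0.673, interval -3.32 to -0.64, adjusted p = 0.934), where the highest group mean was 1.16 CPM. That mean, of tamoxifen, rests on a library at 2.82 CPM, where the group median was 0.645. The fulvestrant libraries held 8 counts in all. Intervals at peaks picked by the smallest p make no allowance for that choice.

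The peaks raised by estradiol were also read with the antagonists. No antagonist changed these 5 peaks by the test. In the ERBB4 peak chr2:211423117-211423390 the log2 fold changes were -0.26 (SE 0.172) with fulvestrant, -0.03 (SE 0.153) with raloxifene and -0.02 (SE 0.157) with tamoxifen. In the EGFR peak chr7:55177698-55177962 they were -0.07 (SE 0.12), 0.16 (SE 0.109) and -0.09 (SE 0.114). The adjusted p was 1 for each of these 6 values.

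**Figure D5:**
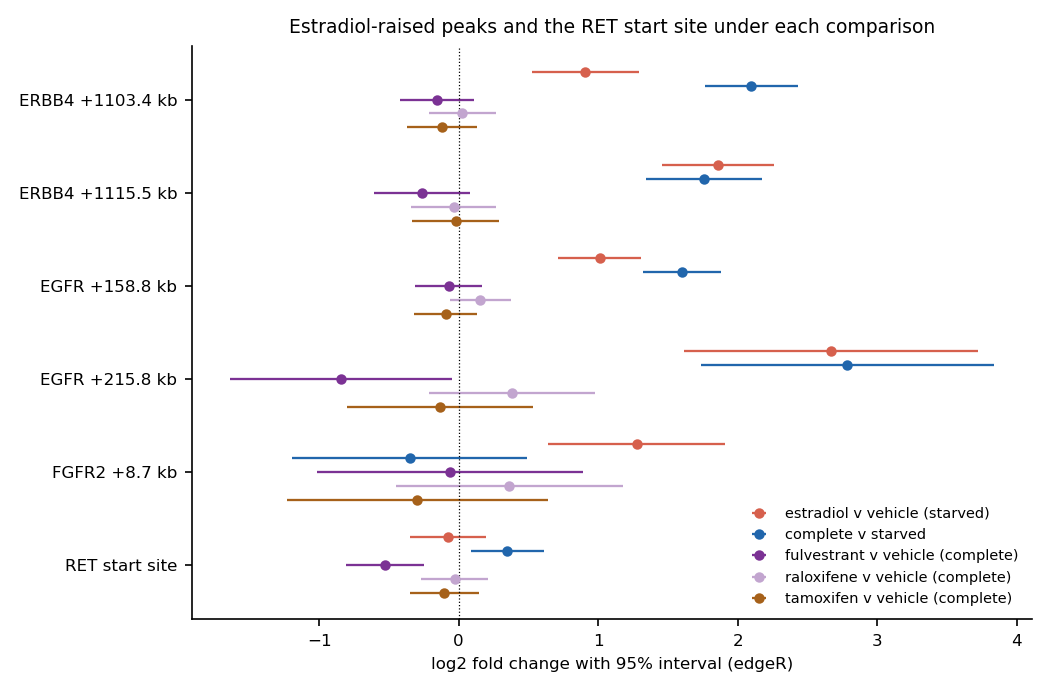
Log2 fold change with its 95% interval (edgeR) of the 5 peaks raised by estradiol, named by distance from the gene's start, and of the RET start site peak, in 5 comparisons. The estradiol values of the 5 peaks run from 0.91 to 2.67, and the RET start site stands at -0.53 with fulvestrant. That RET value was not called after adjustment. It is the smallest p of the members with fulvestrant, and its interval makes no allowance for that choice.

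Other genes of the pathway were taken from lists chosen with earlier results of these data known. Of 464 tested peaks near 26 other receptor tyrosine kinase genes, estradiol raised 3 (0.647%, where 0.813% of all tested peaks were called higher), all near IGF1R, the receptor of insulin-like growth factor 1, and lowered none. The IGF1R peak with the smallest p rose by 2.64 (SE 0.367, adjusted p = 2.01e-07). Near 29 genes of ligands and co-receptors 1 of 432 peaks rose (0.231%), near FGF2. Near 20 genes of adaptors and signal carriers 2 of 341 rose (0.587%), near FRS2, which couples FGF receptors to RAS, and near GAB2, and 14 of these 341 peaks are also member peaks. Near 15 feedback inhibitor genes 5 of 267 rose (1.87%), near LRIG1 (2 peaks), SPRED2, DUSP4 and PTPN1. None fell in any of the 4 lists. The medians were 0.01, -0.01, -0.02 and 0.00, against -0.01 over all tested peaks.

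Between media, 52 of the 464 peaks near other receptor kinases were higher in complete vehicle and 29 lower (11.2% and 6.25%, against 7.93% and 9.92% of all tested peaks), with a median of 0.10. FGFR3 had 10 higher and none lower of 24, and IGF1R 10 and 6 of 77. Near ligands and co-receptors 19 were higher and 37 lower (4.4% and 8.56%), and EFNA5, an ephrin-A ligand, had 8 lower and none higher of 36. Near adaptors 29 were higher and 28 lower (8.5% and 8.21%), and near feedback inhibitors 13 and 25 (4.87% and 9.36%). No peak of the 4 lists was called with fulvestrant.

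Peaks in the window of each gene were also summed per library. The RET window held 145.8 ± 4.73 CPM in complete vehicle, 124.2 ± 5.6 in starved vehicle and 125.2 ± 3.53 with estradiol (SD, n = 4). The ERBB4 window held 193.4 ± 13.6, 137.6 ± 11.8 and 167.3 ± 10.9 CPM, and its estradiol libraries (156.3 to 182.3) lay between both vehicle groups, overlapping complete vehicle (180.5 to 210.5) and not starved vehicle (120.9 to 148.2). The ERBB2 window went the other way, at 454.9 ± 28.8, 504.7 ± 7.10 and 478.5 ± 14.5 CPM. The DDR1 window was the lowest, at 30.7 ± 2.33, 28.8 ± 1.63 and 28.3 ± 2.11 CPM. Over the 24 libraries the summed log2 values of the RET window were most like those of KCNH8 (r = 0.959), LRIG1 (0.955) and GOLGA6C (0.954), where the median r over genes was 0.681. Those of ERBB2 were most like PABPC1L (0.983), TOMM34 (0.978) and ITGB1 (0.976), with a median of 0.779. The points share library depth, and without the 2 shallowest libraries the values were 0.922, 0.913 and 0.899 for RET (median 0.239) and 0.917, 0.897 and 0.868 for ERBB2 (median 0.124). The ranks of these genes were then 2, 6 and 16 for RET and 2, 3 and 11 for ERBB2, so other genes were more alike.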

How the data were processed

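Chromatin accessibility was measured in 24 T47D libraries. Per the submitters' processing notes, reads were handled with cutadapt 1.8.1, Bowtie2 2.4.4 and SAMtools 1.9 with hg38 as build. How peaks were called and counted, how duplicates were treated and whether Tn5 offsets were applied is not given in the sources used here. Per the file headers and values, the authors deposited raw counts per peak in a peak set common to all libraries, without normalization, and all columns were used.

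Libraries were grouped by title. All entered a single model in edgeR 4.0.16 under R 4.3.3, with a mean per group, after filterByExpr (minimum count 10, minimum total 15) and TMM scaling. Contrasts were tested two-sided with the quasi-likelihood F-test (robust, legacy=FALSE), and the 156745 tested peaks shared one Benjamini-Hochberg adjustment with a threshold of 0.05. The SE is the fold change divided by the root of F. Fitted fold changes weigh libraries by depth and can differ from ratios of mean CPM. CPM uses TMM-scaled totals. Gene intervals and promoter windows are from RefSeq on GRCh38.p14; all 10 genes were found, but no promoter entry matched ERBB3 or FGFR1. The window of ERBB2 lies in PGAP3 and was not printed. Exons and introns were not used here. Starts are printed as in the table, which does not say whether they count from 0 or 1.

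Peaks named by rule are, for each gene, the strongest, the smallest p for estradiol and for medium, and the one nearest to the start site. The rule adds the 3 smallest p for each antagonist and the smallest p for each other comparison. The members, gene lists and rule were chosen with earlier results of these data known. DESeq2 1.42.0, other scalings, filters and windows, a replicate block, replicate sets and leaving out libraries were the alternatives. On simulated counts for the estradiol comparison (153865 peaks) the share of 50 simulated peaks recovered was 0% at 1.5-fold, 34% at 2-fold and 100% at 4-fold. At 0.5-fold it was 25.5% of 47. The simulation gave all peaks the same spread between libraries and changed far fewer peaks than were called in the data. These shares therefore need not hold for the real comparison.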

Additional observations from a re-analysis of the deposited data

Results flagged for a closer look

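Within groups of 4 libraries, the gap from 1 library to the nearest other was divided by the range of the group. In 12 of 132 groups this ratio exceeded Dixon's 95% critical value. Chance gives about 1 in 20 groups. No explanation was tested for these values.

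Of the 12, 5 concern fulvestrant replicate 4, the shallowest library, whose TMM scaling factor of 1.49 was the highest. It was lowest in the summed CPM of the RET window (92.64, the others 135.8 to 141.3), the ERBB3 window (359.7, the others 533.3 to 566.6), the ERBB4 window (98.81, the others 169.7 to 179.9) and the FGFR1 window (137.4, the others 197.9 to 205.9). It was highest in the FGFR2 peak 57.474 kb downstream of the start (6.176 CPM, the others 3.06 to 3.503).

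Tamoxifen replicate 3 was lowest in the ERBB2 window (431.1, the others 451.7 to 453.7) and in the EPHA2 window (91.15, the others 107.0 to 109.3). Starved vehicle replicate 4 was lowest in the EPHA2 window (93.07, the others 116.7 to 119.2). Tamoxifen replicate 1 was highest in the FGFR1 peak 48.616 kb outside the gene (8.094 CPM, the others 4.705 to 5.263). Tamoxifen replicate 2 was highest in the FGFR2 peak 8.703 kb downstream of the start (2.477 CPM, the others 0.4183 to 0.6423) and in the EPHA2 peak nearest to FAM131C (5.573 CPM, the others 3.726 to 3.869). Complete vehicle replicate 1 was highest in the FGFR4-window peak nearest to NSD1 (6.374 CPM, the others 4.448 to 4.466).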

How the results depend on the processing

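No direction reversed among the named peaks in any alternative fit, and reversals were counted for those peaks only. The count of member peaks raised by estradiol (5) was 3 among peaks above the median abundance, 3 within replicates 1 and 2 and 3 within replicates 3 and 4. With the replicate set as a term it was 8, where 1.07% of all peaks were called in either direction. It ran from 3 to 6 when each library was left out in turn, with 3 without estradiol replicate 3. The count lowered (0) was 1 with the set as a term and 1 within replicates 3 and 4, and 0 to 1 in leave-one-out, with 1 without estradiol replicate 2; each time it was the FGFR2 peak 57.474 kb downstream. The block by replicate number gave 8 raised and 1 lowered, where 1.05% of all peaks were called in either direction. It added the RET peak 33.846 kb downstream and 2 ERBB4 peaks. Same-numbered libraries correlated at -0.128 to 0.126 in their deviations from group means. The medians were 0.097, 0.06, 0.045 and 0.043 for replicates 1 to 4, against -0.031 between different numbers and groups. Not every pair passed 0.1, and the numbers were not taken to pair the libraries. Yet 16 of 24 libraries correlated best with their own number, a hint of pairing from the data and not from the design. The count higher in complete medium (32) was 17 and 8 within the sets, 19 without the conflicting vehicle libraries and 21 with DESeq2, and the count lower (16) was 10 within replicates 3 and 4; leave-one-out gave 23 to 39 and 11 to 16. For estradiol-treated starved against complete vehicle, the higher count (13) was 5 and the lower count (23) was 8 within replicates 3 and 4, the latter 14 without the conflicting libraries; leave-one-out gave 9 to 16 and 19 to 24. Of the calls, 12 of 48 between media, 2 of 5 with estradiol and 9 of 36 in the last comparison held in every alternative. The antagonist counts were 0 in every alternative run. Without the 2 shallowest libraries the counts were 4 raised by estradiol and 33 higher and 16 lower in complete medium. Counts given without a share over all peaks are not read as a trait of the members.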
